A study of Mus musculus with 5 samples.

Results

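Integrins are paired alpha and beta transmembrane receptors that fasten cells to the extracellular matrix and to other cells, and focal adhesions are the protein assemblies that link them to actin inside the cell. The genes described here were every protein-coding mouse gene whose symbol begins with Itga or Itgb, without Itgb1bp1, Itgb1bp2, Itgb3bp and Itgbl1, together with the focal adhesion core Tln1, Tln2, Vcl, Ptk2, Ilk, Parva, Pxn, Fermt1, Fermt2, Fermt3 and Src. This rule took 38 of the 56941 gene identifiers in the count table, which were 18 alpha subunits, 9 beta subunits and 11 core genes. The rule used names only and no measured value. Of the 38 genes, 36 had at least 10 counts in at least 1 pool and were tested. The other 2 were Itgad, whose counts were 4, 2 and 3 in the DBA/2J libraries and 0 in both Gpnmb+ libraries, and Itgb2l, with 0 counts in all 5 pools, where a count of 0 allows up to 3 counts at these depths.

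RNA was sequenced from the iridocorneal angle, the drainage tissue between iris and cornea, of DBA/2J mice, which develop pigmentary glaucoma, and of DBA/2J-Gpnmb+/SjJ mice, called Gpnmb+ below. DBA/2J carries a nonsense allele of Gpnmb and the b allele of Tyrp1, and Gpnmb+ has the functional Gpnmb allele on the same background and keeps Tyrp1 b. By the labels the mice were 12 months old and untreated and of both sexes, and each library was a pool of angles from several animals, giving 3 DBA/2J and 2 Gpnmb+ libraries. The study describes 3 mice in each pool, whereas the library names list 3 animals for every DBA/2J pool and 2 for each Gpnmb+ pool. The dissected ring kept some iris and ciliary body, and in this bulk tissue fewer cells of a type and less RNA per cell cannot be told apart.

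In these receptors the alpha chain largely sets the ligand (collagen, laminin, proteins with an RGD motif, or counter-receptors on other cells), and a few beta chains each serve many alpha partners. Talins and kindlins bind the beta tail and switch the receptor on, ILK and parvin tie it to actin, vinculin reinforces a loaded talin, and FAK (Ptk2), Src and paxillin carry the signal onward. In the trabecular meshwork, the filter tissue of the angle, integrin contacts with the matrix are known to take part in the contractility and stiffness on which aqueous outflow depends.

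The gene counts summed to between 43900661 and 49837758 per library. Gpnmb itself had 1946 to 2234 counts in the DBA/2J pools and 110568 to 129659 in the Gpnmb+ pools, as the labels say (log2 fold change -5.67, edgeR adjusted p = 0.000231). None of the 38 genes lies on chromosome 6, where Gpnmb is. All 6 trabecular meshwork markers matched were expressed, Myoc at 7106 counts or more in every pool. Markers of the nonpigmented ciliary epithelium, a neighbouring tissue, were on the higher side in DBA/2J in 6 of 7 cases (median log2 fold change 0.94), led by Col9a1 (2.06) and Six6 (1.74), with 2 edgeR and 5 DESeq2 calls. Their summed levels were 917, 923 and 896 CPM in DBA/2J and 882 and 687 CPM in Gpnmb+, where CPM is counts scaled to library size. Aqp1, the marker on the lower side (log2 fold change -0.39), was the largest part of each sum. Its level was 430, 420 and 379 CPM in DBA/2J and 619 and 454 CPM in Gpnmb+. The part of these markers in the comparisons below was not tested. The pools also differed in sex. Counts of Ddx3y, on the Y chromosome, were 3608, 4168 and 1567 against 0 and 4 (below, per-pool values are always given for DBA/2J pools 1 to 3, then for Gpnmb+ pools 1 and 2), so sex and genotype cannot be told apart in any comparison below. Counts of Xist, an RNA of female cells, were 596, 0 and 2417 against 7843 and 9152. Male RNA was thus nearly absent from both Gpnmb+ pools, although both sexes are stated, and the DBA/2J pools also differed among themselves.

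Measured per length as TPM (counts divided by the length of the gene's merged exons and rescaled to one total per library), Itgb1, the beta chain shared by most matrix receptors, was the highest of the 38 genes, at 564, 457 and 522.2 TPM against 473 and 435 TPM. It made up 48.6 to 53.9% of all beta-subunit TPM in the 5 pools, and this share was 52.0% ± 2.95 (SD, n = 3) in DBA/2J and 51.1% ± 1.27 (n = 2) in Gpnmb+. The next levels, as means over 5 pools, were Itgb5 (an alpha v partner) at 158.8 TPM, Ilk at 147 TPM, the leukocyte beta chain Itgb2 at 137 TPM, Vcl at 130.1 TPM and Tln1 at 114 TPM. With the longest transcript as the length, Itgb1 remained first at 432 TPM and Vcl followed Itgb5 at 154 TPM.

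Among alpha chains the laminin receptor Itga6 had the highest mean level (105.9 TPM), followed by Itgav, which binds RGD proteins such as vitronectin, at 69.9 TPM and Itgax, which marks dendritic cells and some macrophages, at 66.1 TPM. The order of Itga6 and Itgav differed in size between pools, from 153 against 73.1 TPM in DBA/2J pool 1 to 82.1 against 74.9 TPM in DBA/2J pool 3, and the neighbours Itgav and Itgax overlapped in range. The alpha chains summed to 528, 419 and 422 TPM against 419 and 398 TPM, and the beta chains to 1045, 939 and 977 TPM against 909 and 865 TPM. Every beta-chain sum was higher in DBA/2J than in Gpnmb+, whereas the alpha sums nearly met. At the low end, Itgae, Itga2b and Itga10 had means of 2.11, 1.45 and 1.03 TPM.

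**Figure D1:**
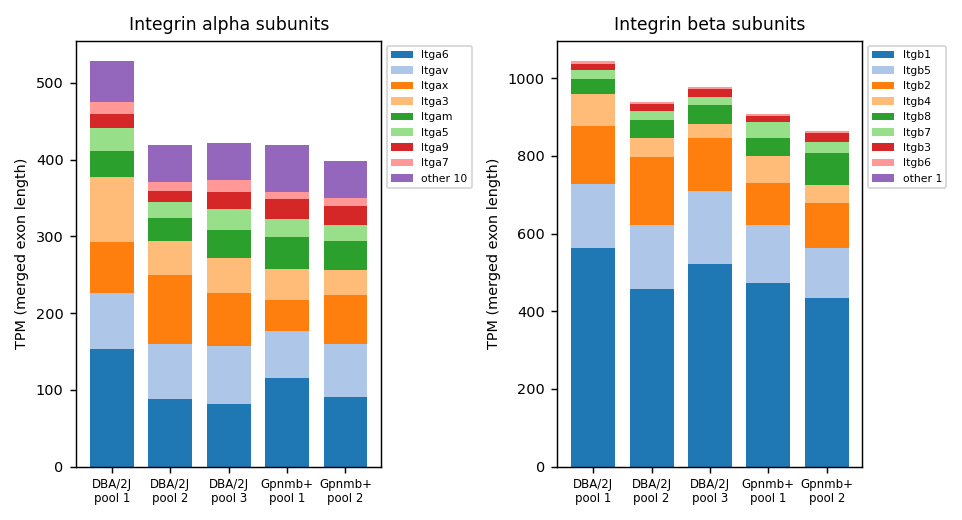
Stacked bars of integrin alpha (left) and beta (right) subunit RNA in each of the 5 pools, in TPM with merged exon length. Itgb1 fills 48.6 to 53.9% of each beta bar, and DBA/2J pool 1 has the tallest alpha bar, at 528 TPM.

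To compare the genotypes, all 19713 genes past the count minimum were fitted together with edgeR's quasi-likelihood test, positive log2 fold changes being higher in DBA/2J. Calls required both a Benjamini-Hochberg adjusted p no higher than 0.05 and a 1.5-fold difference or more. No integrin or core gene was called, higher (0 of 36, against 0.502% of all tested genes) or lower (0 of 36, against 0.294%), and the smallest adjusted p among them was 0.134, for Vcl. At an unadjusted edgeR p of at most 0.05, 7 were higher (8.31% of all genes) and 5 lower (7.60%). DESeq2, the tool the study names, called Itgae and Vcl higher (2 of 36, against 2.76% of all genes) and Itga8 lower (1 of 36, against 1.94%). With 0 to 2 genes in each direction, the calls of both tools do not set the 36 genes apart from all genes, and the larger share at an unadjusted p was not tested.

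The log2 fold changes of the 36 genes ran from -1.03 for Itga8 to 1.15 for Itgae. Of the 36, 25 were on the higher side in DBA/2J, or 69.4% against 47.4% of all tested genes, and their median was 0.16 against -0.02 for all genes. With DBA/2J pool 1 left out, 21 of 36 were on the higher side and their median was 0.07. Most of the changes were small. Only 6 genes, or 16.7% against 18.4% of all genes, had a fold change of 1.5 or more in either direction. The normalised levels of the 3 DBA/2J pools lay wholly above both Gpnmb+ pools in 13 genes (17.3% of all genes did so) and wholly below in 6 (17.2% of all genes).

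**Figure D2:**
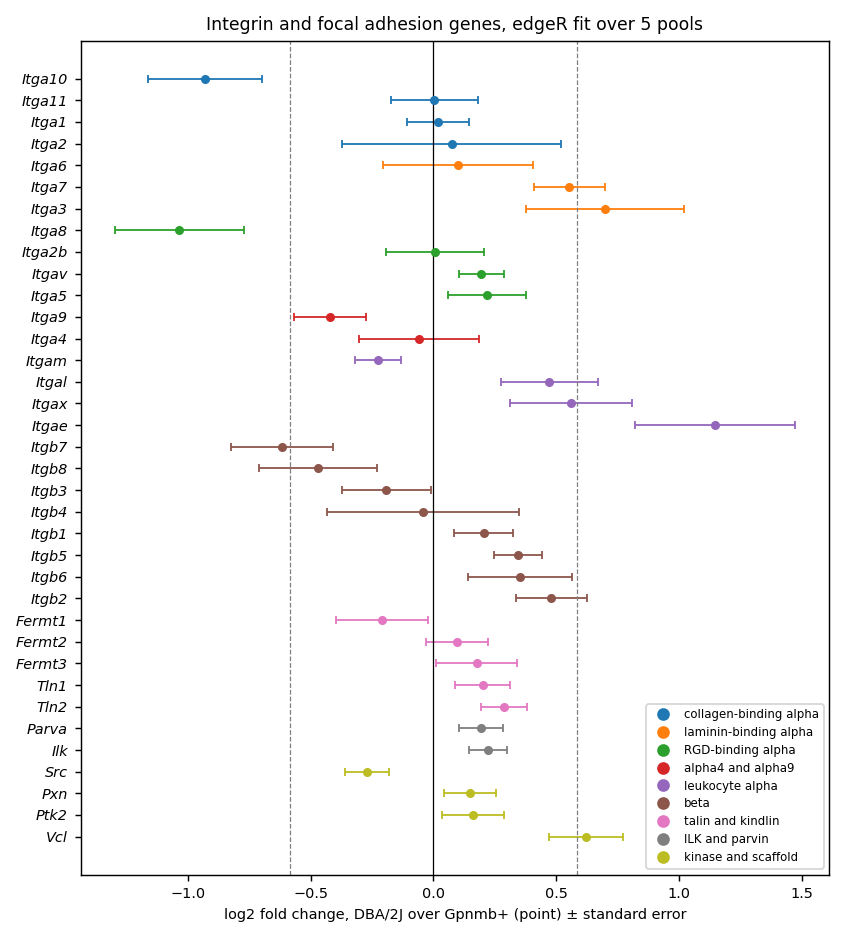
Log2 fold change of DBA/2J over Gpnmb+ with its standard error (horizontal axis) for the 36 tested genes, coloured and grouped by role, with dashed lines at a fold change of 1.5. Points run from -1.03 (Itga8) to 1.15 (Itgae), and most core genes at the bottom lie slightly right of 0.

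Among the alpha chains that bind RGD proteins, Itga8 stood apart. It encodes the alpha 8 chain, which pairs with beta 1, binds nephronectin and is found in smooth muscle and other contractile cells. Counts of Itga8 (chr2:12110900-12307214, GRCm39) were 494, 937 and 744 against 1798 and 1581. Every DBA/2J pool lay well below both Gpnmb+ pools, and pool 1 was the lowest. The normalised means were 766 ± 248 (SD, n = 3) and 1569.6 ± 102 (n = 2), 2.05-fold lower in DBA/2J (log2 fold change -1.03 ± 0.26 SE). The difference did not pass in edgeR (adjusted p = 0.147) and passed in DESeq2 (adjusted p = 0.00768), and the adjusted p was 0.110 to 0.334 under the other alternatives. Its share of all alpha-subunit TPM was 1.44% ± 0.586 in DBA/2J and 3.23% ± 0.121 in Gpnmb+.

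Some of the Itga8 reads could be placed on an overlapping gene. The long noncoding RNA E030013I19Rik runs on the opposite strand and shares 735 exonic bases with Itga8. Its own counts, 14, 40 and 25 against 101 and 88, were far below those of Itga8 in each pool. The strand setting of the counting is not stated, so reads of such pairs cannot be told apart. The other alpha chains of this group differed little: Itgav had a log2 fold change of 0.20 ± 0.09 (edgeR adjusted p = 0.371), Itga5, the fibronectin receptor chain, 0.22, and Itga2b, the platelet chain, 0.01. For Itgav the counts were 9885, 9433 and 9487 against 9037 and 9936, and its normalised levels did not overlap between genotypes although the counts did.

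Marker genes of other cells moved the same way as Itga8. All 6 trabecular meshwork markers were lower in DBA/2J (median log2 fold change -0.84), and their summed CPM was 971 to 1176 in DBA/2J and 1514 to 1541 in Gpnmb+. All 6 Schwann cell markers were lower too (median -0.95, sums of 150.1 to 199 against 260.0 to 319). Smooth muscle and pericyte markers had a median of -0.11, with 5 of 6 lower and sums of 1155 to 1251 against 1292 to 1361. What these cells contribute to the Itga8 level was not tested.

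**Figure D3:**
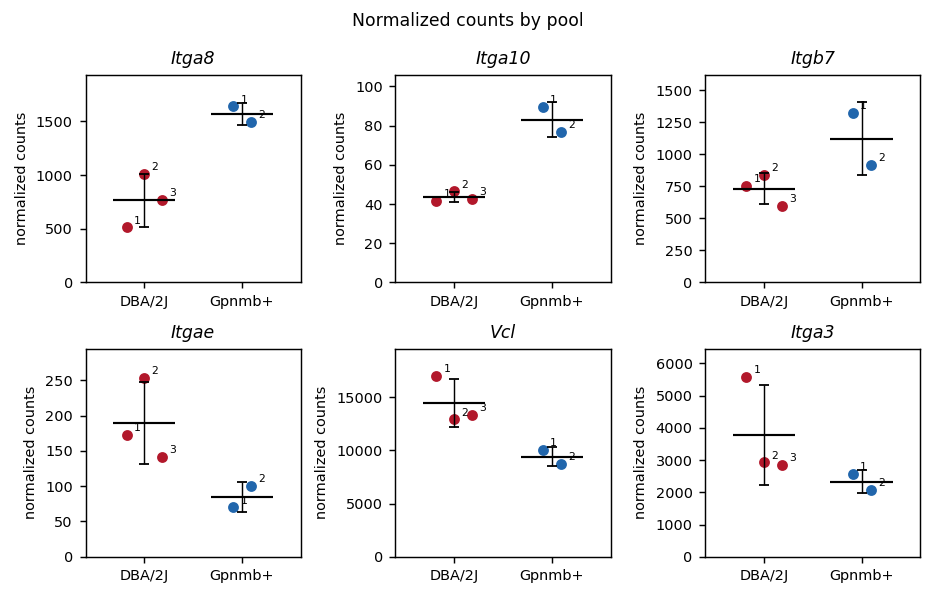
TMM-normalised counts (vertical axis, from 0) of the 6 integrin and core genes with a fold change of at least 1.5, by genotype, numbered by pool, with the mean (line) and SD (bar). In all 6 panels the DBA/2J points lie wholly on one side of the Gpnmb+ points, and DBA/2J pool 1 is far above the rest for Itga3. Of the 3619 tested genes with such a fold change, 1138 lay wholly higher and 1245 wholly lower.

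The collagen receptors showed one lower gene and 3 near 0. Counts of Itga10, best known from cartilage, were 40, 43 and 41 against 98 and 81, so the DBA/2J pools were close to each other and all lower. The means were 43.6 ± 2.51 and 83.1 ± 9.03 normalised counts (log2 fold change -0.93 ± 0.23, edgeR adjusted p = 0.144, DESeq2 adjusted p = 0.0747). It is the least abundant of the tested genes per length, and neither tool called it. Itga1, which binds collagen IV and is the most abundant of the 4, gave counts of 2333, 1742 and 2164 against 2450 and 2192, with overlapping pools and a log2 fold change of 0.02 ± 0.13. Mocs2, on the opposite strand, shares 2180 exonic bases with Itga1 and had 2519 to 3809 counts, more than Itga1 in every pool. The level of Itga1 is therefore uncertain. Itga11, a fibroblast collagen I receptor, had a log2 fold change of 0.00 ± 0.18. Itga2, an epithelial and platelet collagen receptor, gave counts of 638, 212 and 337 against 508 and 342, and the error of its log2 fold change (0.07 ± 0.45) exceeded the value.

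The laminin receptors were all on the higher side in DBA/2J, with different reliability. Itga7, which joins muscle fibres to laminin, reached 1531, 1154 and 1373 normalised counts against 879 and 964. The pools did not overlap (log2 fold change 0.55 ± 0.14, edgeR adjusted p = 0.152), and DESeq2 gave an adjusted p of 0.0205 at a fold change under 1.5. The 8 skeletal muscle markers were also all on the higher side in DBA/2J (median 0.96). Their sums were 160.0, 235 and 421 CPM against 158 and 102 CPM, highest in pool 3, whereas Itga7 was highest in pool 1. The part of muscle fibres in the Itga7 level was not tested.

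For Itga3, an epithelial laminin receptor chain, counts were 5358, 2716 and 2741 against 2822 and 2200. DBA/2J pool 1 was far above every other pool, and pools 2 and 3 were only just above Gpnmb+ pool 1 after normalisation (2931 and 2847 against 2577 normalised counts). The log2 fold change was 0.70 ± 0.32 (edgeR adjusted p = 0.360) and 0.31 without DBA/2J pool 1. Itga6, the alpha chain of the hemidesmosome receptor, gave counts of 19093, 10770 and 9599 against 15770 and 12049. Its pools overlapped fully (log2 fold change 0.10 ± 0.30), and the sign turned to -0.26 without DBA/2J pool 1 and to -0.06 without Gpnmb+ pool 2. Its partner Itgb4 had the same pool pattern, at counts of 6587, 3729 and 2541 against 5961 and 4051 (log2 fold change -0.04 ± 0.39).

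DBA/2J pool 1 thus carried more RNA of epithelial receptors than its 2 companion pools. On the log2 scale its level minus the mean of pools 2 and 3 was 1.23 for Itga2, 1.07 for Itgb4, 0.95 for Itga3, 0.89 for Itga6 and 0.51 for Itgb6, the epithelial partner of alpha v, and -0.78 for Itga8. Over the 36 genes the median absolute gap was 0.21, against 0.19 over all tested genes. Other RNAs were high in that pool as well. Among 7 corneal and limbal epithelium markers only Krt14 was highest there of the pools of both genotypes (counts of 60633, 30127 and 20481 against 45702 and 22213). Krt5, Krt12, Krt13, Krt15, Trp63 and Dsg1a were highest in other pools, Krt15 with 143999, 192416 and 127222 counts against 190427 and 201322. Within DBA/2J alone, Krt5, Krt12, Krt14 and Trp63 were highest in pool 1, and Krt13, Krt15 and Dsg1a in pool 2. Krt12 had 11298, 4970 and 421 counts against 86337 and 27106 (log2 fold change -3.16, edgeR adjusted p = 0.27). The list summed to 9832 CPM in DBA/2J pool 1, between the lowest sum, 6462 CPM in DBA/2J pool 3, and the highest, 11300 CPM in Gpnmb+ pool 1. The secreted integrin ligand Ccn1 had 36848 counts in DBA/2J pool 1 and 4823 to 5519 in the other 4 pools, and the neutrophil protein S100a8 had 2494 counts against 174 to 876. Their part in the receptor levels of that pool was not tested.

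**Figure D4:**
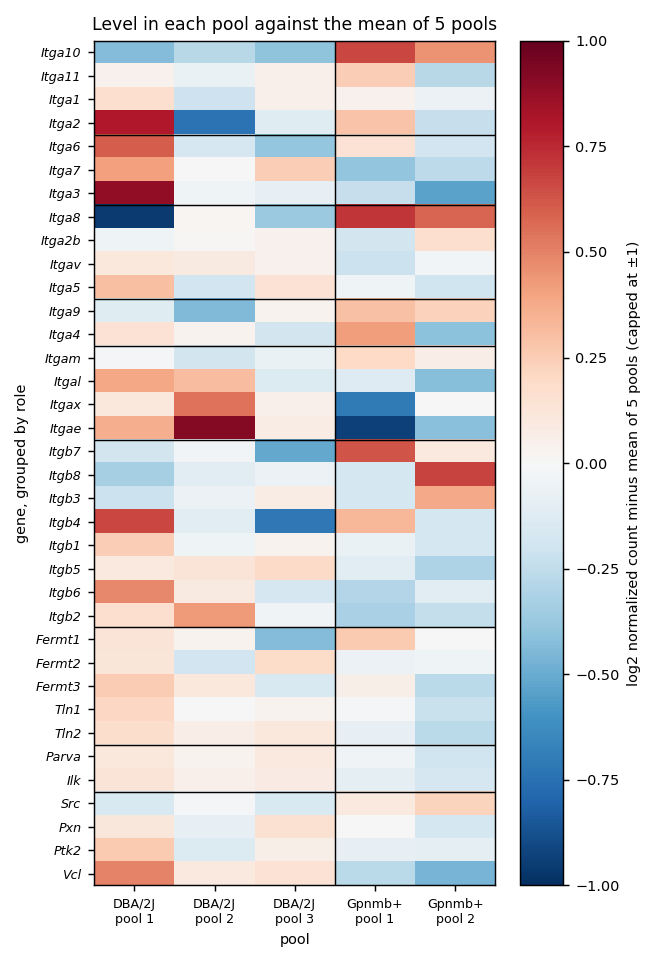
Log2 normalised count minus the mean of the 5 pools (colour, capped at 1 in either direction) for the 36 tested genes in rows grouped by role, with one column per pool. Itga2, Itga3, Itga6 and Itgb4 are darkest red in DBA/2J pool 1. Itga10 is blue in every DBA/2J pool and red in both Gpnmb+ pools. Itga8 is also red in both Gpnmb+ pools, but blue only in DBA/2J pools 1 and 3 and close to its mean in DBA/2J pool 2.

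Alpha 4 and alpha 9, which share ligands such as VCAM-1, tenascin C and fibronectin splice forms, had negative values, of which that of Itga4 turned with the pool left out. Itga9, needed for lymphatic valves, gave counts of 1538, 1188 and 1720 against 2331 and 2160. The pools did not overlap, and the log2 fold change was -0.42 ± 0.15 (edgeR adjusted p = 0.252). Itga4, a leukocyte homing receptor, gave counts of 1572, 1406 and 1258 against 2168 and 1178, so the 2 Gpnmb+ pools lay on either side of all DBA/2J pools (log2 fold change -0.06 ± 0.24, and 0.42 without Gpnmb+ pool 1 or -0.41 without Gpnmb+ pool 2). Cerkl, on the opposite strand, shares 3481 exonic bases with Itga4 and had 134 to 563 counts.

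Itgb7 pairs with alpha 4 and with alpha E and is carried by lymphocytes that home to mucosa. Its counts were 725, 778 and 578 against 1450 and 970. All DBA/2J pools were lower, and Gpnmb+ pool 1 was the highest, as for Itga4. The means were 732 ± 121 and 1121 ± 287 normalised counts (log2 fold change -0.62 ± 0.21, edgeR adjusted p = 0.242, DESeq2 adjusted p = 0.106), and the log2 fold change was -0.33 without Gpnmb+ pool 1. Of 5 neutrophil and monocyte markers, Ccr2 was also highest in that pool (7228 counts against 948 to 3043 in the others), whereas S100a8, S100a9, Csf3r and Ly6c2 were highest in DBA/2J pool 1, as was the sum of the list (315, 75.2 and 68.6 CPM against 254 and 39.3 CPM). The part of these cells in the Itgb7 level was not tested.

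Itgae encodes alpha E (CD103), which binds E-cadherin and marks tissue-resident T cells and a subset of dendritic cells. Counts of Itgae (chr11:72981409-73039917) were 166, 235 and 136 against 77 and 106. Each DBA/2J pool was above both Gpnmb+ pools, with pool 2 the highest. The means were 189 ± 57.9 and 85.4 ± 21.3 normalised counts, a 2.22-fold difference (log2 fold change 1.15 ± 0.33), which DESeq2 called (adjusted p = 0.0276) and edgeR did not (adjusted p = 0.178, and 0.0790 to 0.330 under the other alternatives). Its one known beta partner, Itgb7, thus differed in the opposite direction, and Cdh1, which encodes its ligand E-cadherin, had a log2 fold change of -0.25 (edgeR adjusted p = 0.585).

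Markers of the cells that carry alpha E were low and moved partly with it. T cell markers were on the higher side in 6 of 7 cases (median 0.33), and their sums, 29.0 to 45.0 CPM in DBA/2J and 23.0 to 34.0 CPM in Gpnmb+, overlapped. The exception was Cd8a, at 13 to 33 counts against 41 to 50. All 5 classical dendritic cell markers were on the higher side (median 0.79). Xcr1, Clec9a and Cd209a were, like Itgae, highest in DBA/2J pool 2, whereas Flt3 was highest in pool 1 and Zbtb46 in pool 3. Of the T cell markers, Cd3d, Cd3e, Cd3g, Cd4 and Lck were likewise highest in DBA/2J pool 2. Trac was highest in DBA/2J pool 3 and Cd8a in Gpnmb+ pool 1. Xcr1 had 55, 164 and 78 counts against 34 and 64, and its normalised levels overlapped between genotypes. Zbtb46 had a log2 fold change of 0.04. No marker of either list was called. The part of these cells in the Itgae level was not tested.

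The beta 2 integrins of myeloid cells did not move as a block. Itgb2, the shared beta chain, gave counts of 5259, 6079 and 4588 against 4267 and 4372, with no overlap and a log2 fold change of 0.48 ± 0.14 (edgeR adjusted p = 0.199, DESeq2 adjusted p = 0.0495 at a fold change under 1.5). Itgax counts were 3564, 4677 and 3450 against 2318 and 3660 (log2 fold change 0.56 ± 0.25, and 0.25 without Gpnmb+ pool 1, edgeR adjusted p = 0.350 with all pools). Its normalised levels narrowly did not overlap, at 3583 in the lowest DBA/2J pool and 3466.5 in the highest Gpnmb+ pool. Itgal, the LFA-1 chain of lymphocytes, had a log2 fold change of 0.47 ± 0.20 with overlapping pools. Itgam (CD11b), of macrophages and neutrophils, lay on the other side, with 1948, 1677 and 1890 counts against 2592 and 2276 (log2 fold change -0.23 ± 0.09, edgeR adjusted p = 0.315). Of 7 macrophage markers 6 were on the higher side in DBA/2J (median 0.35), with sums of 734 to 983 CPM against 685 to 818 CPM, which overlapped. Their part in the Itgb2 and Itgax levels was not tested.

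The remaining beta chains serve alpha v or platelets. Itgb5 counts were 12730, 12552 and 13590 against 12553 and 10577, and its normalised levels did not overlap (log2 fold change 0.35 ± 0.10, edgeR adjusted p = 0.171, DESeq2 adjusted p = 0.0208 at a fold change under 1.5). Itgb8, which activates latent TGF-beta together with alpha v, gave counts of 4887, 5518 and 5910 against 6210 and 10777. Its log2 fold change of -0.47 (edgeR adjusted p = 0.406) came with 1 high Gpnmb+ pool and overlapping normalised levels, and leaving out Gpnmb+ pool 2 or pool 1 turned it into 0.02 or -0.83. Itgb3 and Itgb6 had log2 fold changes of -0.19 and 0.35 with overlapping pools, and Itgb1, with 36882, 29188 and 32039 counts against 33848 and 30380, had 0.21 ± 0.12 (edgeR adjusted p = 0.465). For Itgb1 the normalised levels narrowly did not overlap, at 31502 in the lowest DBA/2J pool and 30907 in the highest Gpnmb+ pool.

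Inside the cell, 9 of the 11 core genes were on the higher side in DBA/2J, the median being 0.18 and the range -0.27 to 0.62 on the log2 scale. Vcl encodes vinculin, which binds talin and actin where adhesions bear load. Counts of Vcl (chr14:20979449-21083758) were 16330, 11980 and 12845 against 10984 and 9235. All 3 DBA/2J pools were higher, pool 1 most. The means were 14429 ± 2251 and 9388 ± 907 normalised counts (1.54-fold, log2 fold change 0.62 ± 0.15), which DESeq2 called (adjusted p = 0.00572) and edgeR did not (adjusted p = 0.134, and 0.0611 to 0.412 under the other alternatives). The log2 fold change was 0.49 without DBA/2J pool 1. Ap3m1 on the opposite strand shares 2104 exonic bases with Vcl and reached 64.5, 55.8 and 56.3 CPM against 62.1 and 61.7 CPM, so its levels overlapped between genotypes and were highest in DBA/2J pool 1, as for Vcl. Its counts lay well below those of Vcl in every pool.

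The other core genes differed by less. Tln1, the most abundant talin, gave counts of 13699, 11422 and 12161 against 13332 and 11159 (log2 fold change 0.20 ± 0.11, edgeR adjusted p = 0.438), and Tln2 had 0.29 ± 0.09 (edgeR adjusted p = 0.225). The normalised levels of Tln1 narrowly did not overlap, at 12327 in the lowest DBA/2J pool and 12173 in the highest Gpnmb+ pool. Ilk gave counts of 5039, 4603 and 4876 against 4911 and 4494, and its small log2 fold change of 0.22 ± 0.08 (edgeR adjusted p = 0.257) came without overlap of the normalised levels. Taf10, on the opposite strand, shares 2269 exonic bases with Ilk and had 1361 to 1771 counts. The binding partner of Ilk, Parva, had a log2 fold change of 0.19 ± 0.09. The kindlins Fermt1 of epithelia, Fermt2 of most adherent cells and Fermt3 of blood cells had -0.21, 0.10 and 0.18, each with overlapping pools. Ptk2 and Pxn had 0.16 and 0.15. Src was the one core gene whose pools lay wholly lower in DBA/2J, with 2351, 2501 and 2368 counts against 3196 and 3371 (log2 fold change -0.27 ± 0.09, edgeR adjusted p = 0.239).

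The promoters of the most changed core gene and of the most changed alpha subunit with an entry are shown because both were called by DESeq2, in opposite directions. They cover 250 bases before to 50 after the transcription start, from RefSeq on GRCm38.p6, Vcl at chr14:20929148-20929447 on the plus strand and Itga8 at chr2:12301895-12302194 on the minus strand. Capitals mark matches to the GC box GGGCGG on either strand and to the CArG box, the binding motif of serum response factor, of which Vcl is a known target.
Vcl: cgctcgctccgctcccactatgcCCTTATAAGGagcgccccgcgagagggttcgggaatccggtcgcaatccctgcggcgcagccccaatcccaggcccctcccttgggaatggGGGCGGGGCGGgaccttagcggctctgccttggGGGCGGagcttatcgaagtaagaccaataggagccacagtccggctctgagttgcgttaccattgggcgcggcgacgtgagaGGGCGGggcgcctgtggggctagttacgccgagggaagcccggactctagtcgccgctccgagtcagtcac
Itga8: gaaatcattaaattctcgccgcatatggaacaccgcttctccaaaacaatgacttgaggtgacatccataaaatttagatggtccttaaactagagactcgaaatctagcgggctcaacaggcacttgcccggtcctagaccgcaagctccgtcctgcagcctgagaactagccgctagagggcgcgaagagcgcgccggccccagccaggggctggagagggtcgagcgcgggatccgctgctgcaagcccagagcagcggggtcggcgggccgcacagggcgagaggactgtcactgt
The Vcl sequence holds 4 GC-box matches, 2 of them overlapping, and a CArG box that begins 227 bases before the start, and it has 30 CpG dinucleotides. Itga8 holds none of the searched motifs and 23 CpG, against a median of 7 CpG over all RefSeq promoters. Of the 38 genes, 26 had an entry, with 29 promoters. A CArG box was present for 3 of the 26 (Vcl, Fermt2 and Itgb6), against 1.63% of 32851 promoters, a GC box for 13, against 35.7%, and TATAAA on either strand for 0, against 13.6%. The counts are of genes with a match in any of their promoters, whereas the percentages are of single promoters. A match describes letters only and shows no binding.

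Ligands and partners of these receptors were read from lists of 84 genes of the pathway, of which 83 were tested. The lists were chosen with earlier results of these data known. Their shares beside those of all genes are therefore descriptive only and no independent result. Among 32 matrix and counter-receptor ligands, 22 were on the higher side in DBA/2J (median 0.26), where 47.4% of all tested genes were. EdgeR called 1 of the 32 higher and 1 lower (0.502% and 0.294% of all genes), and DESeq2 called 5 higher and 3 lower (2.76% and 1.94%). Among 34 adaptors and kinases, 19 were on the higher side (median 0.08), with 1 edgeR call and 2 DESeq2 calls, all higher. Among 17 regulators 10 were on the higher side (median 0.02), and neither tool called one, while 2 higher and 2 lower had an unadjusted edgeR p of at most 0.05 (8.31% and 7.60% of all genes).

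Nephronectin, the main ligand of alpha 8 beta 1, differed in the same direction as Itga8. Npnt counts were 1558, 1844 and 1914 against 3668 and 3667, so the Gpnmb+ pools were nearly equal and well above every DBA/2J pool. The log2 fold change was -0.87 ± 0.11 and was called (edgeR adjusted p = 0.0407). DESeq2 also called lower Egfl6 (log2 fold change -0.88), a second RGD ligand of alpha 8 beta 1, and Edil3 (-0.67), a ligand of alpha v integrins, which edgeR did not (adjusted p = 0.104 and 0.127).

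Vitronectin, a ligand of alpha v beta 5, was higher. Vtn counts were 3178, 3265 and 3198 against 2328 and 1936, with closely spaced DBA/2J pools (log2 fold change 0.77 ± 0.10, edgeR adjusted p = 0.0382). The scaffold Nedd9, a relative of p130Cas that FAK and Src phosphorylate, gave counts of 7004, 5395 and 6314 against 3747 and 2999, with no overlap (log2 fold change 1.07 ± 0.14, edgeR adjusted p = 0.0392). With any 1 of the 5 pools left out, edgeR no longer called Npnt, Vtn or Nedd9 (adjusted p of 0.0531 to 0.166), except Vtn without Gpnmb+ pool 1 (adjusted p = 0.0438), while the log2 fold changes stayed at -0.92 to -0.78 for Npnt, 0.67 to 0.89 for Vtn and 0.94 to 1.21 for Nedd9.

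DESeq2 alone called 5 more of these genes higher. They were the basement membrane protein Nid2 (log2 fold change 0.94), the microfibril protein Fbn1 (1.11), the collagen chain Col1a1 (0.99), the leukocyte counter-receptor Vcam1 (0.82) and the FAK relative Ptk2b (0.59), with edgeR adjusted p-values of 0.0846, 0.110, 0.0867, 0.0581 and 0.0858. The alpha 11 and alpha 4 chains had log2 fold changes of 0.00 and -0.06, where Col1a1 and Vcam1 had 0.99 and 0.82. Fn1 and Tnc, ligands of alpha 5 and alpha 9, had 0.26 and 0.09, and Icam1, bound by LFA-1, had 0.19. The differences between a receptor and its ligand were not tested.

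**Figure D5:**
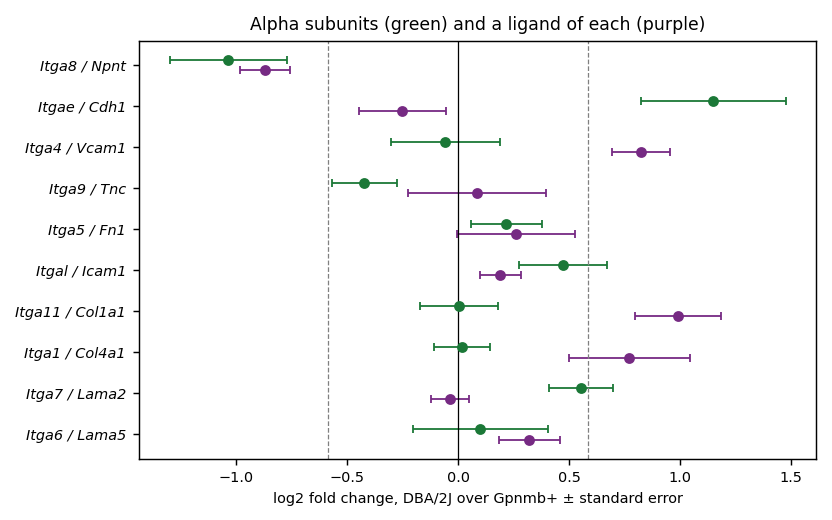
Log2 fold change of DBA/2J over Gpnmb+ with its standard error for an integrin alpha subunit (green) and 1 ligand of it (purple), in 10 pairs, with dashed lines at a fold change of 1.5. Both points of the Itga8 and Npnt pair lie left of the lower line, at -1.03 and -0.87, whereas Itgae and Cdh1 lie on opposite sides of 0, at 1.15 and -0.25.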

How the data were processed

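Messenger RNA of 5 pools of iridocorneal angles (Kapa mRNA HyperPrep, paired-end reads) was sequenced by the authors, who used fastp for trimming and STAR for alignment to GRCm39 (Ensembl 110) and deposited raw counts of reads with a single genomic location per gene, without normalization. The counting tool and its strand setting are not given in the sources used here, so genes that overlap on opposite strands are uncertain. All 5 deposited columns were used, and no 2 were identical.

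Names, positions and exon lengths came from GENCODE M39 (GRCm39), which held 56323 of the 56941 identifiers. The 19713 genes that reached 10 counts in 1 or more pools were kept, libraries were scaled by TMM, and the genotypes were compared over the whole table with edgeR 4.0.16 (quasi-likelihood test, no covariate, Benjamini-Hochberg adjustment, R 4.3.3). Calls needed an adjusted p of at most 0.05 and a fold of 1.5. DESeq2 1.42.0 and limma-voom (limma 3.58.1) were alternatives, beside other size factors, other count filters, the pool number as a block, no fold minimum, unadjusted p and each pool left out. The scripts were tested on simulated counts. Normalised counts are TMM-scaled to the mean library, log2 CPM used a prior count of 2, and each SE is the log2 fold change divided by the root of the F statistic. Pools are separate libraries of several animals, so the spread between them is smaller than that between mice. The SDs and SEs cover the spread between pools, and the bound given for a count of 0 covers counting error only. With 3 pools against 2, a permutation test of a single gene cannot reach 0.05, so p-values come from the fits.

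The rule for the 38 genes used symbols only, but the rule, the marker lists and the pathway lists were chosen with earlier results of these data known. Per-pool values are given for genes called by either tool, for those with a fold of 1.5 or more and separated pools, and for the most abundant of each role; the other per-pool values were added after they were seen. One listed trabecular meshwork marker was not matched to a unique gene.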

Additional observations from a re-analysis of the deposited data

How the results depend on the processing

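Pool numbers are shared between genotypes, and nothing in the labels says that they mark a common animal or day; same-numbered pools deviated together by correlations of 0.279 and 0.254 over genes, in 2 pairs only. With the pool number as a replicate block, edgeR called 0 integrin or focal adhesion genes, 120 of all genes higher and 100 lower (99 and 58 without the block), and 5 pathway genes higher, Vtn not among them, and 1 lower (2 and 1 without it), and the log2 fold change of Itga1 was -0.0111.

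None of the 36 genes was called by edgeR with DESeq2's size factors, filterByExpr, no count minimum, no fold minimum or any pool left out, nor by limma-voom. DESeq2 called 2 higher and 1 lower, with 545 and 382 of all genes and 7 and 3 pathway genes. At an unadjusted p, with the fold kept, 2 were higher and 3 lower, against 827 and 883 of all genes and 9 and 3 pathway genes. Without a count minimum, 242 of all genes were called higher and 118 lower, and 5 pathway genes higher. Leaving out 1 pool gave 0 (without DBA/2J pool 2) to 150 genes called higher and 1 to 67 lower (both highest without Gpnmb+ pool 1), and 0 to 1 pathway genes called higher and 0 lower. Without a Gpnmb+ pool, 1 library remains there and is assumed to vary like the DBA/2J pools. The log2 fold change of Itga1 was then -0.0627 at the lowest (DBA/2J pool 1 left out) and 0.1173 at the highest, with -0.0325 without Gpnmb+ pool 2, and that of Itga6 was -0.2568 at the lowest (DBA/2J pool 1 left out) and 0.289 at the highest, with -0.0577 without Gpnmb+ pool 2. Itga2, Itga2b, Itga4, Itga11, Itgb3, Itgb4 and Itgb8 also changed sign in at least 1 of 12 settings, among them Itgb8 (-0.83 to 0.02), Itga4 (-0.41 to 0.42) and Itga2 (-0.44 to 0.37). The cause was not tested. The median of the 36 genes stayed between 0.07 and 0.26. Itga8 ran from -1.29 to -0.81, Itgae from 0.88 to 1.43, Vcl from 0.49 to 0.73, Itga10 from -1.04 to -0.81 and Itgb7 from -0.85 to -0.33 over all settings.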
